A study of Mus musculus with 6 samples.

Results

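Sphingolipid metabolism was described gene by gene in mDCT15 cells, a mouse cell line derived from the distal convoluted tubule of the kidney. The members are 46 genes listed by name, which encode the enzymes, regulatory subunits and receptors of ceramide, sphingomyelin, sphingosine 1-phosphate, glucosylceramide and ganglioside metabolism. Of these, 41 have a row among the 20624 genes of the table analysed here, and *Sptlc3*, *Sptssb*, *Degs2*, *Smpdl3a* and *Acer1* have none. RNA was sequenced from 3 samples of *Pkd1*-/- mDCT15 cells and 3 samples of wild type mDCT15 cells, and the labels name no treatment. Both lines were cultured in the same medium with serum. The methods do not say which medium the cells were in when RNA was taken. The edited cells were made by CRISPR-Cas9 editing. The sample titles write the genotype as Pkd1-/-, while the genotype field of the labels speaks of a knockdown, and the number of edited clones is not given in the sources used here.

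The measure is the authors' mean normalized count, in which the reads of a gene are divided by a size factor for each library and averaged over all 6 samples. It pools both genotypes, so it gives the level of a gene in the study and not a difference between *Pkd1*-/- and wild type cells. No spread between samples goes with it, so the order of levels below is a description without a test. Sequencing depth cannot be read from this column for any sample. The means add up to 16746088 over all genes, of which the 41 sphingolipid genes take 37188, or 0.222%. *Gm26917* and *Gm42418*, loci known to collect reads of ribosomal RNA, take 6.29% and 1.79%. Because a long gene collects more reads, levels were compared between genes after division by the length of their merged exons, as a level per kb. Undivided means are given to show how many reads a gene rests on. Exon lengths came from the GENCODE annotation of GRCm39, in which 20122 genes (97.6%) were found.

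Ceramide is the hub of this pathway. It is built de novo in the endoplasmic reticulum, where serine palmitoyltransferase joins serine to palmitoyl-CoA, 3-ketodihydrosphingosine is reduced, ceramide synthases add an acyl chain and a desaturase places the double bond. It is also released from sphingomyelin by sphingomyelinases and from glycosphingolipids in the lysosome. Ceramidases split it to sphingosine, which kinases turn into sphingosine 1-phosphate, a signalling lipid with receptors of its own. Ceramide promotes the budding of vesicles in endosomes, and glycosphingolipids accumulate in polycystic kidneys. *Pkd1* encodes polycystin-1, whose loss causes polycystic kidney disease.

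Most sphingolipid genes were read well. A mean normalized count of at least 100 was reached by 34 of the 41 genes, against 50.3% of all genes and 72.9% of the 13862 protein-coding genes. Of the others, *Cers1* (37.9), *Smpd3* (18.8) and *Acer2* (10.4) lay above a mean of 10, and *S1pr1* (9.98), *Sgpp2* (7.21), *Cers3* (6.55) and *S1pr3* (2.61) lay below it. These 7 genes rest on the fewest reads, and the next upward in read number, *Sphk1*, had a mean normalized count of 244.6. Per kb, the median of the sphingolipid genes was 92.8, against 28.6 for all genes and 72.7 for protein-coding genes. The levels per kb ran from 0.534 for *S1pr3* to 691 for *Degs1*, a 1294-fold range. In number, 32 of the 41 genes lay above the median of all genes and 23 above that of protein-coding genes.

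**Figure D1:**
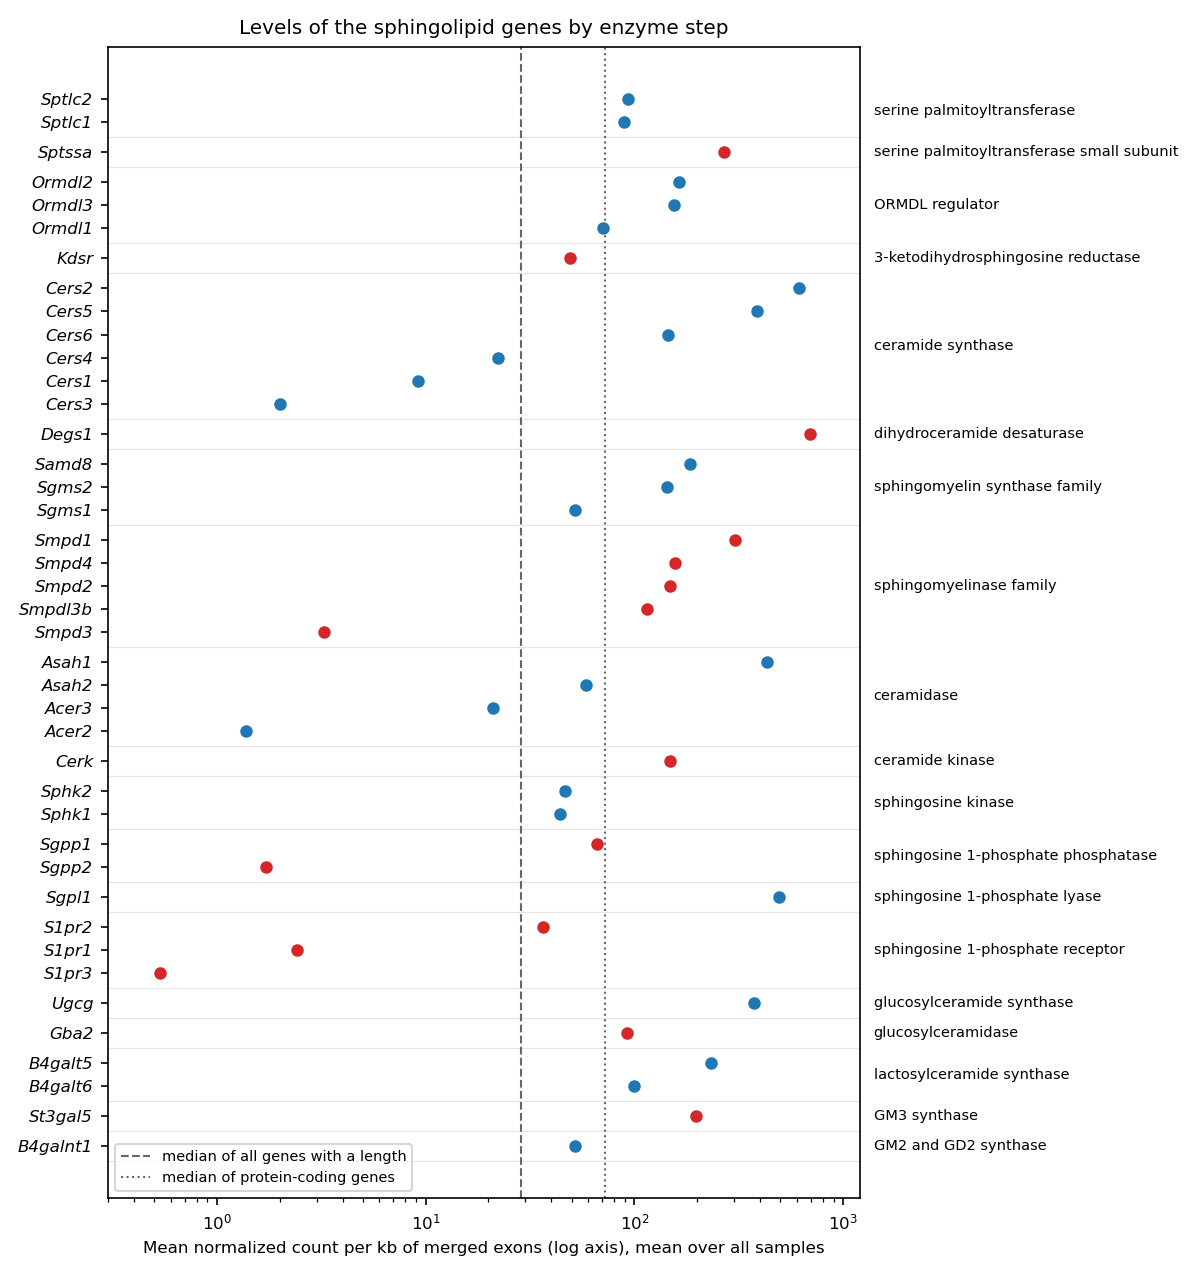
Level of each sphingolipid gene, as the mean normalized count per kb of merged exons on a log axis, averaged by the authors over all 6 samples. Genes are grouped by enzyme step, alternating blue and red, and the lines mark the medians of all genes (28.6, dashed) and of protein-coding genes (72.7, dotted). The 6 lowest points are *Smpd3*, *S1pr1*, *Cers3*, *Sgpp2*, *Acer2* and *S1pr3*.

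Promoter sequences were examined next, and are shown for the ceramide synthases and the sphingosine 1-phosphate phosphatases, as examples of steps that hold both a well-read and a weakly read gene. The ceramidases, sphingomyelinases and receptors are such steps too. RefSeq promoter windows, from 250 bases before a transcription start to 50 bases after it, were found for 36 of the 41 genes. Where a gene has several starts, the window with the most CpG dinucleotides was taken. The 4 stretches below are each 100 bases from the windows of the highest and the lowest gene of these steps, written 5′ to 3′ on the strand of the gene, with CpG dinucleotides in capitals. They are the bases nearest the start that lie in no annotated exon of the gene, and were placed in GRCm39 by an exact match of the whole window.

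The *Cers2* stretch lies on the plus strand at chr3:95222295-95222394, opposite an exon of *6330562C20Rik*, and holds 10 CpG dinucleotides. Between it and the RefSeq start are 106 bases, and it lies within the annotated span of *Cers2*, which begins at 95221790. The *Cers3* stretch is on the plus strand at chr7:66393152-66393251, directly before the start, and holds 2. The *Sgpp1* stretch is on the minus strand at chr12:75782606-75782705, and the *Sgpp2* stretch on the plus strand at chr1:78286833-78286932. These hold 9 each.
Cers2: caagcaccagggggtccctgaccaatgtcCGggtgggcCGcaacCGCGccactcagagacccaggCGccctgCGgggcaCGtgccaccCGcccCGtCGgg
Cers3: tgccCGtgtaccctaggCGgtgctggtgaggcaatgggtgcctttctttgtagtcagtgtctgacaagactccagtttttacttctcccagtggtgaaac
Sgpp1: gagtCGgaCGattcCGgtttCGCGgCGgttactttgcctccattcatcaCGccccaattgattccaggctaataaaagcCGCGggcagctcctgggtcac
Sgpp2: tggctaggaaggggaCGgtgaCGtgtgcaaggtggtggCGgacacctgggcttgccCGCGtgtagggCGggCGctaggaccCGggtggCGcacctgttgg

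In the whole windows, *Cers2* had 30 CpG dinucleotides and *Cers3* had 7, while *Sgpp1* had 36 and *Sgpp2* had 34. The contrast among the ceramide synthases rests on *Cers3*, since *Cers1*, at 9.16 per kb, had 22 and *Cers5*, at 388 per kb, had 20. The low level of *Cers1* carries a limit, since 68.5% of its exon bases are shared on the same strand with *Gdf1*. The window of the weakly read phosphatase was nearly as rich in CpG as that of its well-read relative. The receptors *S1pr2* and *S1pr3* had 18 and 14. *Acer2*, at 1.37 per kb, had 31, whereas *Asah2*, at 58.5 per kb, had 4. The median number of CpG dinucleotides was 25 for the 31 sphingolipid genes with a mean of at least 100, against 24 for all 8161 such genes. For the 5 sphingolipid genes below that mean that have a window it was 22, against 11 for all 3711 such genes. *Smpd3* and *S1pr1*, also below that mean, have no window. The GC box (GGGCGG, either strand) was present in 28 of the 36 windows (77.8%), against 64.2% of the windows of all 11872 genes. When only the genes that reached a mean of 100 were counted, the shares were 77.4% and 72.1%. The CCAAT motif, on either strand, was present in 12 (33.3%, against 37.5%), and TATAAA in 0, against 7.05% of all genes and 5.35% of those with a mean of at least 100. A match describes the letters of the window only.

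**Figure D2:**
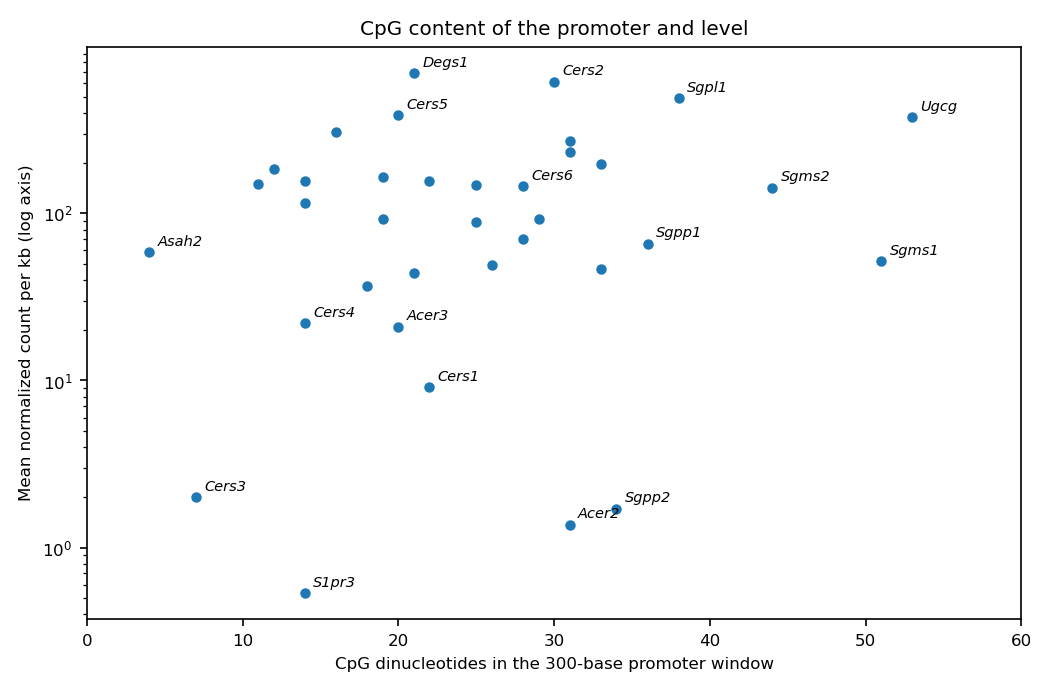
Number of CpG dinucleotides in the promoter window (horizontal) and mean normalized count per kb of merged exons on a log axis (vertical) for the 36 sphingolipid genes with a window, 1 point per gene. *Cers3* is low on both axes, *Sgpp2* and *Acer2* are low in level with 34 and 31 CpG dinucleotides, and *Asah2* has 4 at a level of 58.5.

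The entry into the pathway was read at similar levels for its catalytic subunits. Serine palmitoyltransferase, the rate-limiting enzyme of de novo synthesis, is formed by SPTLC1 with SPTLC2 or SPTLC3. *Sptlc2* (ENSMUSG00000021036, chr12:87351832-87435267, minus strand) reached a mean normalized count of 1090, which is 92.8 per kb. *Sptlc1* (ENSMUSG00000021468, chr13:53486729-53531449, minus strand) reached 579, or 88.8 per kb, so that the subunits differed by a factor of 1.05 on this scale. The gap was wider with the longest coding sequence, at 641 and 374 per kb, and *Sptlc2* took 63.1% of the step there and 65.3% without division by length. *Sptssa*, which encodes a small subunit that activates the enzyme, had a mean normalized count of 421, and with its short exons of 1564 bases it reached 269 per kb. The alternative subunits *Sptlc3* and *Sptssb* have no row. The ORMDL proteins, which restrain serine palmitoyltransferase when ceramide is plentiful, were all read. *Ormdl2* stood at 164 per kb, *Ormdl3* at 155 and *Ormdl1* at 70.6. *Ormdl2* and *Ormdl3* changed places when the longest transcript was used as the length (165 and 195 per kb). Of the exon bases of *Ormdl2*, 59.4% lie opposite exons of *Dnajc14* or *Sarnp*, and whether this raised or lowered its count was not tested. *Kdsr*, the 3-ketodihydrosphingosine reductase, had a mean normalized count of 619 and 49.3 per kb. With merged exons as the length this was the lowest level among the genes of de novo synthesis outside the ceramide synthases. With the longest coding sequence *Kdsr* had 619 per kb and lay above *Sptlc1* (374 per kb).

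Among the ceramide synthases, which differ in the length of the acyl chain they attach, *Cers2* and *Cers5* were read most. *Cers2* (ENSMUSG00000015714, chr3:95221790-95234060, plus strand), whose product prefers very long acyl chains, was counted at a mean of 3158, or 613 per kb, and 29.3% of its exon bases lie opposite *6330562C20Rik* or *Setdb1*. *Cers5* (ENSMUSG00000023021, chr15:99632477-99670783, minus strand) was counted at 1874, or 388 per kb. *Cers6* (ENSMUSG00000027035, chr2:68691455-68944627, plus strand) was counted at 1362, or 146 per kb. CERS5 and CERS6 both favour palmitoyl chains. The level of *Cers2* was 1.58 times that of *Cers5* per kb and 305 times that of *Cers3*. The gap to *Cers3* was wider with the longest coding sequence, at 2658 and 5.21 per kb.

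The other ceramide synthases contributed little. *Cers4*, with broad preference for long chains, had a mean normalized count of 303, but its merged exons span 13680 bases, and its level was 22.1 per kb. *Cers1*, the stearoyl-specific synthase of neurons and muscle, had 37.9 and 9.16 per kb. *Cers3*, the synthase of skin and testis that uses ultra-long chains, had 6.55 and 2.01 per kb. The count of *Cers1* is a special case, since 68.5% of its exon bases are shared on the same strand with *Gdf1*, and reads that fall on shared bases are assigned to neither gene by the counting that the methods describe. In shares of the summed level per kb, *Cers2* took 52.0%, *Cers5* 32.9%, *Cers6* 12.3%, *Cers4* 1.88%, *Cers1* 0.777% and *Cers3* 0.171%. *Cers2* led by every length measure, with shares from 46.8% without division by length to 62.8% with the longest transcript. The share of *Cers6* ran from 8.48% with the longest transcript to 20.8% with the longest coding sequence, and that of *Cers4* from 1.37% to 4.62%.

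The last step of de novo synthesis held the highest level per kb of merged exons. *Degs1* (ENSMUSG00000038633, chr1:182103335-182110389, minus strand) encodes the desaturase that turns dihydroceramide into ceramide. Its mean normalized count was 2596 and its level of 691 per kb ranked 1 among the 41 genes, at percentile 96.8 of all genes. With the length of the longest transcript *Cers2* (1338 per kb) lay above *Degs1* (1012 per kb). With the longest coding sequence *Cers2* (2658 per kb) was again above *Degs1* (2515 per kb). Without division by length *Sgpl1* (3213), *Cers2* (3158) and *Asah1* (2819) lay above *Degs1*, so its first rank holds for merged exons only. *Degs2*, whose product also makes phytoceramide, has no row.

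**Figure D3:**
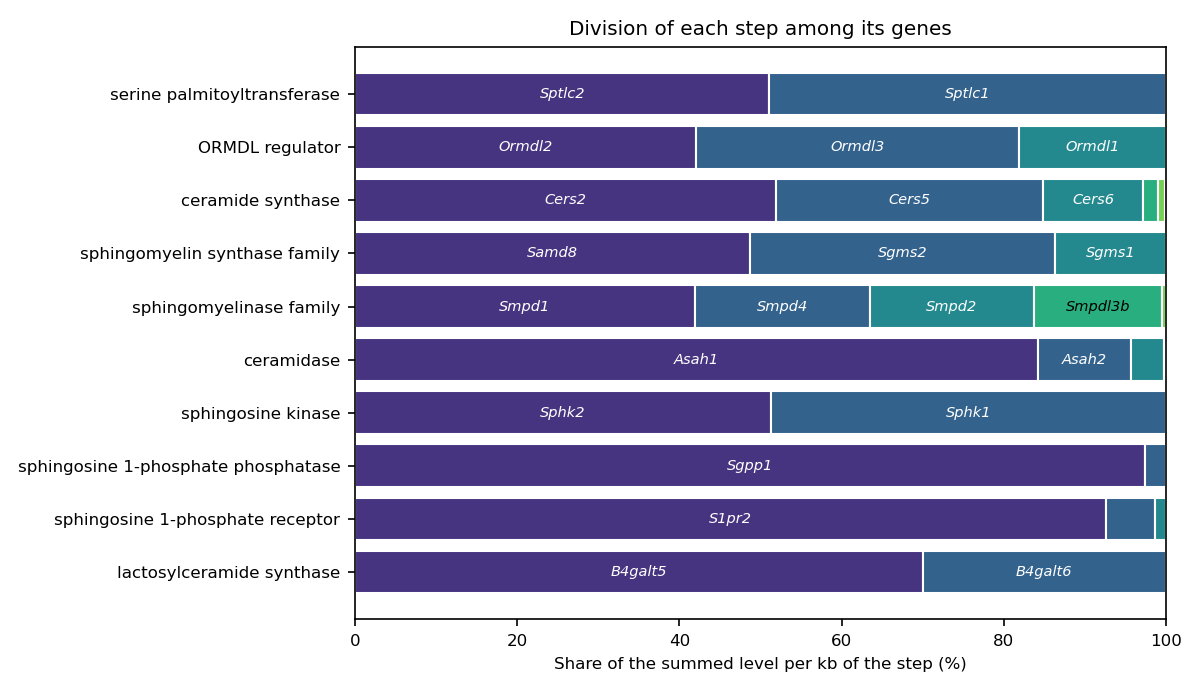
Share of each gene in the summed level per kb of its step, in percent, for the 10 steps with more than 1 gene in the table. Segments are ordered by size, and segments too narrow for a name are unlabelled. *Sgpp1*, *S1pr2* and *Asah1* take 97.5%, 92.6% and 84.3% of their steps, whereas the serine palmitoyltransferase subunits and the sphingosine kinases divide theirs almost evenly with merged exons as the length, and *Sptlc2* takes up to 65.3% with other lengths.

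Conversion of ceramide to sphingomyelin and back was represented by several genes at each side. SGMS1, in the Golgi, and SGMS2, at the plasma membrane, make sphingomyelin, whereas SAMD8 makes ceramide phosphoethanolamine. *Samd8* had a mean normalized count of 1712 and 185 per kb, *Sgms2* had 1035 and 143, and *Sgms1* had 970 and 51.7. *Sgms1* is annotated with 64 transcripts and merged exons of 18745 bases, and its level rose to 135 per kb with its longest transcript, still below the 176 of *Sgms2*. The size of the gap between *Sgms1* and *Sgms2* therefore depends on the length used.

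The sphingomyelinases release ceramide from sphingomyelin. *Smpd1* (ENSMUSG00000037049, chr7:105203564-105207597, plus strand), the acid enzyme of the lysosome, was counted at a mean of 1034, or 305 per kb. The neutral enzymes followed, with *Smpd4* at 1453 and 157 per kb and *Smpd2* at 676 and 148 per kb. *Smpdl3b*, a membrane-anchored relative of acid sphingomyelinase, had 651 and 115 per kb. *Smpd3* (ENSMUSG00000031906, chr8:106979176-107064670, minus strand), the neutral sphingomyelinase linked to vesicle release, was counted at a mean of 18.8, or 3.26 per kb. It lay 93.6-fold below *Smpd1* per kb, at percentile 25.5 of all genes, and took 0.448% of the summed level of the family. With the longest coding sequence the gap was narrower, at 550 per kb for *Smpd1* and 9.54 for *Smpd3*. With that length *Smpd4* (560 per kb) and *Smpd1* changed places. Of the exon bases of *Smpd2*, 51.5% lie opposite exons of *Mical1* or *Ppil6*.

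Ceramidases were dominated by the lysosomal enzyme. *Asah1*, acid ceramidase, had a mean normalized count of 2819 and 433 per kb, which is 84.3% of the summed level of the step. *Asah2*, neutral ceramidase, had 703 and 58.5 per kb. The alkaline ceramidases were low per kb of merged exons, with 21.0 for *Acer3* (mean normalized count 330) and 1.37 for the Golgi enzyme *Acer2* (10.4). With the longest coding sequence the order of *Acer3* (373 per kb, 12.3% of the step) and *Asah2* (310 per kb, 10.2%) turned. With merged exons *Asah1* was 7.40 times *Asah2* per kb and 315 times *Acer2*. *Cerk*, which phosphorylates ceramide, had a mean normalized count of 1152 and 149 per kb.

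In the sphingosine 1-phosphate branch the breakdown enzyme was read far above the enzymes of synthesis. The kinases that make the lipid had similar levels, *Sphk2* with 46.4 per kb (mean normalized count 346) and *Sphk1* with 44.1 per kb (245). Their order turned with the longest transcript, where *Sphk1* had 60.2 per kb and *Sphk2* 46.6, and 38.1% of the exon bases of *Sphk2* lie opposite *Dbp* or *Rpl18*. *Sgpl1*, the lyase that cleaves sphingosine 1-phosphate irreversibly and is the exit from sphingolipid metabolism, had a mean normalized count of 3213 and 490 per kb. This was 5.42 times the summed level of both kinases. The phosphatase *Sgpp1*, which recycles the lipid to sphingosine, had 379 and 65.9 per kb, and its relative *Sgpp2*, with 32.0% of its exon bases opposite *Farsb*, had 7.21 and 1.71 per kb, a 38.5-fold difference. With the longest transcript they had 111 and 1.72 per kb. Levels of RNA of different enzymes do not give the flux through them.

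Of the receptors for sphingosine 1-phosphate, *S1pr2* was read, with a mean normalized count of 373 and 36.6 per kb. *S1pr1*, with 9.98 and 2.41 per kb, lay 15.2-fold lower, and *S1pr3*, with 2.61 and 0.534 per kb, 68.6-fold lower. These gaps widened with the longest coding sequence, where *S1pr2* had 353 per kb, *S1pr1* 8.71 and *S1pr3* 2.30. *S1pr3* was the lowest of the 41 genes, at percentile 7.05 of all genes. *S1pr2* therefore took 92.6% of the summed level of the listed receptors. A mean over both genotypes cannot show whether such a low gene was read in all samples or in a few.

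Synthesis of glycosphingolipids begins with the transfer of glucose to ceramide. *Ugcg*, the glucosylceramide synthase, had a mean normalized count of 2162 and 375 per kb, at percentile 92.1 of all genes. *Gba2*, a glucosylceramidase outside the lysosome, had 672 and 92.4 per kb, and 26.2% of its exon bases lie opposite *Creb3* or *Rgp1*. The lactosylceramide synthases were *B4galt5*, with 1043 and 232 per kb, and *B4galt6*, with 619 and 99.5 per kb, so that *B4galt5* took 70.0% of the step. *St3gal5*, which adds sialic acid to form the ganglioside GM3, had 1361 and 197 per kb. *B4galnt1*, which extends GM3 to GM2, had 407 and 51.7 per kb, with 45.3% of its exon bases opposite *Slc26a10* or a predicted gene.

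**Figure D4:**
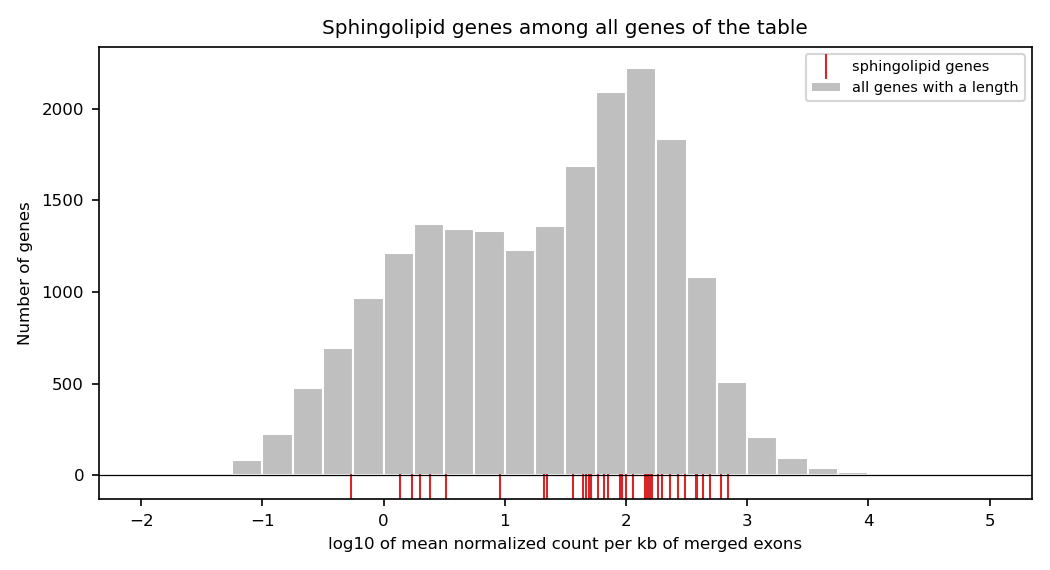
Number of genes by log10 of the mean normalized count per kb of merged exons, in bins of 0.25, for the 20122 genes with a length (grey), with the 41 sphingolipid genes as red marks below the axis. The marks gather in the upper mode of the distribution, and 7 lie below 10 per kb.

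The members lie on 17 chromosomes, with at most 4 on any of them. Only *Cers1* shares more than 25% of its exon bases with another gene on the same strand, and 7 members lie opposite another gene over more than 25% of theirs. The methods give the counting at default parameters and do not say whether the libraries match its strand setting. Whether reads of such partners were told apart is therefore not known. No member's symbol occurs on more than 1 row.

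A wider list of 56 genes of sphingolipid transport, lysosomal breakdown, glycosylation and acyl chain elongation was set beside the members. It has 48 rows, and 38 of these (79.2%) had a mean normalized count of at least 100. That limit was reached by 50.3% of all genes and by 72.9% of protein-coding genes, so the share lies near that of protein-coding genes. The median level of the list was 123 per kb, against 28.6 for all genes and 72.7 for protein-coding genes. The highest were *Psap* (4294 per kb), the precursor of the saposins that assist lysosomal hydrolases, and *Tecr* (1301 per kb), a reductase of acyl chain elongation. They were followed by *Gltp* (868), which transfers glycolipids, *Rtn4* (801), *Osbp* (652), *Elovl6* (557), *Hsd17b12* (543), *Plpp2* (531), *Vapa* (487) and *Ugt8a* (299), the galactosylceramide synthase, in the same unit. *Psap* lay 6.2-fold above *Degs1*. Genes of the list at a mean normalized count near or below 10 were *Mfsd2b* (10.1), *Mfsd2a* (9.23), *Fa2h* (5.70) and *S1pr5* (1.63). *Spns2*, which exports sphingosine 1-phosphate, had a mean normalized count of 1757 and 262 per kb.

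The labelled cell type was checked against its markers. Of 11 genes of the distal convoluted tubule, 8 have a row, and *Slc12a3*, the sodium chloride cotransporter that defines this segment, *Pvalb* and *Calb1* have none. *Trpm6* (29.6), *Kcnj10* (38.3) and *Klhl3* (5.70) had low mean normalized counts, whereas *Wnk1* (8468), *Cnnm2* (643), *Stk39* (621), *Kcnj16* (428) and *Wnk4* (413) were read well. Among epithelial genes, *Epcam* had 115 and *Krt8* 0.980, and *Cdh1* and *Krt18* have no row. The proximal tubule gene *Lrp2* had 8826, while *Slc34a1* (2.04) and *Slc5a2* (2.77) were low. The markers *Ptprc* of leukocytes (5.36), *Pecam1* of endothelium (4.68), *Pdgfra* (4.12) and *Pdgfrb* (4.48) were low, with *Col1a1* at 201 and *Aqp3* of the collecting duct at 1.95. The listed genes of the thick ascending limb, the intercalated cell and the podocyte have no row. The targeted gene, *Pkd1*, had a mean normalized count of 3175,, with a mean over both genotypes does not check the labels.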

How the data were processed

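RNA of 3 *Pkd1*-/- and 3 wild type samples, grouped by their titles, was sequenced after depletion of ribosomal RNA. According to the methods and the submitters' processing notes, the authors trimmed reads with Trim Galore 0.4.5, mapped them with STAR 2.7.5a to GRCm39, counted them per gene with HTSeq 0.11.0 at default parameters and normalized and compared them with DESeq2 1.22.0 in R 3.5.3. The methods describe a filter at 5 counts for each gene in each sample, while 5385 rows of the table have a mean under 5. The deposited signal used here is the authors' mean normalized count over all samples. The remaining columns hold the authors' own comparison (log2 fold change, its standard error, Wald statistic, p-value and adjusted p-value) and were not used. Values per sample, and with them sequencing depth, replicate spread and a comparison of the genotypes, were not analysed here, and the test designed for counts per sample was not run.

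Levels per kb used merged exons of GENCODE M39, a later annotation than the one the reads were counted on, and percentiles cover all genes with a length. Alternatives were the longest transcript, the longest coding sequence, no division by length, limits of 50 and 200 on the mean, the row order of repeated symbols and other backgrounds. Every member with a row is named, and of the wider list the 10 highest per kb are given. Its lowest genes, *Spns2* and the genes of the closing observations were chosen after their values were seen. The members and lists were chosen with earlier results of these data known. Promoter windows are those of RefSeq on GRCm38.p6. Functions for lengths, overlaps and percentiles were tested on simulated data. Scripts ran in Python 3.11.15 with pandas 2.3.3 and numpy 2.4.6, and figures were drawn in matplotlib 3.10.9.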

Additional observations from a re-analysis of the deposited data

How the results depend on the processing

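The number of sphingolipid genes with a mean normalized count of at least 100 was 34, and it was also 34 with limits of 50 and 200 and with the first row of a repeated symbol. The number above the median of all genes per kb was 32, and ranged from 23, against protein-coding genes or genes with a mean of at least 10, to 34 without division by length. The gene that led its step was the same in 8 of 10 steps with the longest transcript, in 7 with the longest coding sequence and in 8 without division by length. The exceptions were the ORMDL genes, the sphingosine kinases and the sphingomyelinases, whose leading genes lie close to each other or differ in length. Of 30 recomputed shares of the leading genes, 25 fell outside a binomial interval around the share with merged exons. That interval took the summed mean counts of a step as if they were reads, so it is not a measured error of a share. The shares depend on the length chosen. No paired analysis was possible because the values used are means over all samples, and for the same reason replicates could not be left out and other count normalizations, filters and DESeq2 size factors were not run for the comparison of genotypes. Precision of a single level is unknown, and the 7 genes with a mean under 100 rest on few reads.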

Other observations

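The listed elongases of fatty acyl chains were read in an uneven way. *Elovl6*, which extends palmitate to stearate, stood at 557 per kb, *Elovl5* at 244, *Elovl1*, which supplies the very long chains that CERS2 uses, at 228, *Elovl7* at 203 and *Elovl4* at 88.7, whereas *Elovl2* and *Elovl3* have no row. Of the lysosomal enzymes of glycosphingolipid breakdown, *Neu1* stood at 238 per kb, *Glb1* at 117, *Gla* at 79.5, *Hexa* at 72.1 and *Galc* at 49.9. The activator genes *Gm2a* (287) and *Psap* (4294) lay above these 5 genes. Of further genes of ganglioside synthesis, *St3gal2* stood at 230 per kb, *B3galt4* at 43.1 and *St8sia1*, the GD3 synthase, which acts on GM3, at 3.08, and *St8sia5* has no row. *Cert1*, which carries ceramide to the Golgi and is listed as *Col4a3bp*, stood at 108 per kb. These values are means over both genotypes, without a test.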
